A study of Mus musculus with 31 samples.

Results

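Maternal imprint regions of the mouse genome, 6 in number and those of Plagl1 on chromosome 10, Grb10 and Zrsr1 on chromosome 11, Peg13 on chromosome 15, Airn on chromosome 17 and Impact on chromosome 18, were followed through oocyte growth. The regions were set by fixed coordinates in the mouse build mm9 and not by any measured value: chr10:12809500-12812000 for Plagl1, chr11:11924500-11927500 for Grb10, chr11:22871500-22875000 for Zrsr1, chr15:72636000-72642500 for Peg13, chr17:12933500-12936000 for Airn and chr18:13130000-13133500 for Impact. They are 6 of 158438 regions considered, the others being fixed 3-kb windows of the genome. They held 253 of the 1419929 CpG sites that appear in any library, namely 15 in Plagl1, 79 in Grb10, 88 in Zrsr1, 30 in Peg13, 19 in Airn and 22 in Impact. A CpG is a cytosine followed by a guanine, the sequence at which mammalian DNA is mostly methylated.

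The DNA came from oocytes of B6D2F1 mice, the cross of C57BL/6 with DBA/2, with no genotype change or treatment in any group. Reduced representation bisulfite sequencing was used, in which MspI cuts DNA at CCGG and bisulfite turns unmethylated cytosines into thymines, so that the reads cover mainly CpG-rich fragments. The 31 libraries belong to 9 stages, taken from the titles and the tissue labels. Another label, for the developmental stage, names embryonic stages such as the zygote and does not match them, and it was not used. Type1 and Type2 are from primordial follicles (n = 3 each), Type3a and Type3b from primary follicles (n = 3 each), Type4, Type5a and Type5b from secondary follicles (n = 5, 5 and 3), and Type6 and Type7 from antral follicles (n = 3 each). The sources used here give neither the age of the mice nor the number of oocytes pooled into a library. They do not say whether replicates came from different mice, so p-values measure the spread between libraries, which may be technical. A level is the percentage of methylated reads among all reads over sites with at least 5 reads. It averages over all DNA molecules of a library, so partly methylated oocytes and a mix of methylated and unmethylated oocytes cannot be told apart.

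Depth ran from 7949652 to 60361665 reads over CpG sites per library, and 53 to 182 of the sites in the 6 regions had at least 5 reads in a library. Zrsr1 was measured in 31 libraries, Grb10 and Peg13 in 30, Airn and Impact in 29 and Plagl1 in 17. Median reads per library were 2969 in Zrsr1, 1730 in Impact, 1068 in Grb10, 893 in Airn, 197 in Plagl1 and 119 in Peg13. These reads are summed over sites, so a read that covers several sites counts at each, and the reads at the most-read site give the number known to be distinct. That number had a median of 126 in Zrsr1, 119 in Impact, 76 in Airn, 60 in Grb10, 26 in Peg13 and 20 in Plagl1. At that number, the 95% Wilson interval reached at its widest 10.1 points to one side in Zrsr1, 16.2 in Grb10 and in Impact, 17.7 in Airn, 22.4 in Peg13 and 29.4 in Plagl1. Limits for levels of 0 are likewise 3 reads of that number. Both cover counting error only, and since reads carry no molecular identifiers, copies of 1 molecule count as distinct. As a check on DNA from cells other than oocytes, whose inactive X chromosome is methylated at CpG islands, an X measure was taken. It is the level of CpG-dense tiles on the X chromosome minus that of CpG-dense tiles on the autosomes. It lay above 0 in 9 libraries, with values from 0.978 to 10.6. These were replicates 1, 2 and 5 of Type4, 5 and 7 of Type5a, 1 and 2 of Type6, 3 of Type1 and 1 of Type3a. Its part in the levels below was not tested.

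Genomic imprinting is the expression of a gene from only one parental copy. It depends on regions whose methylation is set in the germline of one parent and then kept after fertilisation on that parent's chromosome, with the zinc-finger protein ZFP57 protecting it in the early embryo. Maternal imprints are laid down after birth, while the oocyte grows, by the de novo methyltransferase DNMT3A with its cofactor DNMT3L, usually where transcription runs through the region, and they are known not to be set at all loci at the same time.

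The promoters of 3 of the genes could be tied to listed CpG sites, and they are shown because they differ in what happened to them: the Plagl1 and Zrsr1 promoters lie inside the imprint regions and were highly methylated in the antral stages, while an upstream promoter of Grb10 lies outside its region and had low levels throughout. The sequences are 300 bases each from RefSeq on GRCm38.p6, 5′ to 3′ on the gene's strand, from chr10:13090582-13090881 on the plus strand for Plagl1, chr11:12037371-12037670 on the minus strand for Grb10 and chr11:22971755-22972054 on the plus strand for Zrsr1. Capitals mark the CpGs that the libraries list. Those sites were found in mm9 from the spacing of the CpGs and from the neighbouring bases that the files give.
Plagl1: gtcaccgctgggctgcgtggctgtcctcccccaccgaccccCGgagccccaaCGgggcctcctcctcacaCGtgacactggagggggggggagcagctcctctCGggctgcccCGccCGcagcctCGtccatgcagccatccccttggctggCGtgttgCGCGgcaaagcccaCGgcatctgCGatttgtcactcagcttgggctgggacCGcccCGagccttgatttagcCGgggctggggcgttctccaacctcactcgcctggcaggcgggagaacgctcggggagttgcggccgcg
Grb10 upstream promoter: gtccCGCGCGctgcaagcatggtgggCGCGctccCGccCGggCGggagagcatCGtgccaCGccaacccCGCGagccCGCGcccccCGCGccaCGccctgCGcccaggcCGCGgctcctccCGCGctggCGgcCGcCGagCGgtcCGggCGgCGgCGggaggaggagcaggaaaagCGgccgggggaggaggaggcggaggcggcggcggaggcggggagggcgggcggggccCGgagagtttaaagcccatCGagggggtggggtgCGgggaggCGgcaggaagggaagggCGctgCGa
Zrsr1: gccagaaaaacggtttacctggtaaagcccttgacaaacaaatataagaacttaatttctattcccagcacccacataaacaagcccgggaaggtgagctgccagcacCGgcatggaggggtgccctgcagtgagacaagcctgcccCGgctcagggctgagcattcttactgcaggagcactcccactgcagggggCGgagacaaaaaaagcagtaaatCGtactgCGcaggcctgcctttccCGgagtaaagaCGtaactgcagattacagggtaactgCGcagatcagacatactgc
The match covered 15 of 15 sites for Plagl1, 36 of 36 for Grb10 and 8 of 8 for Zrsr1, where the next best placement matched 3, 6 and 2. The Plagl1 promoter holds 26 CpGs, of which 15 were listed, the Grb10 promoter 45, of which 37 were listed, and the Zrsr1 promoter 10, of which 8 were listed. The median of 32817 mouse promoters of the same length is 7. CCGG, the MspI site, occurs 2 times in the Plagl1 promoter and 4 times in each of the other two, and is found in 52.8% of the 32817 promoters. TGCCGC, the core that ZFP57 recognises when it is methylated, was searched on both strands. It occurs 1 time in the Plagl1 promoter and 1 time in the Grb10 promoter, and not in these letters in the Zrsr1 promoter, and is found in 11.6% of all promoters. Airn, Peg13 and Impact were followed by their region only.

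The regions were at low levels in most libraries of primordial follicles and almost fully methylated in those of the last antral stage. The means in Type2 ran from 0.649% in Plagl1 to 9.92% in Airn, and in Type7 from 95.7% in Grb10 to 100% in Peg13. The largest difference between successive stages compared lay inside the secondary follicle class, between Type5a and Type5b, where the median difference of the 5 regions tested was 59.6 points, against 0.657 points over the windows. By a quasi-binomial model of read counts over all windows and regions (called at an adjusted p under 0.05 and at least 20 points), 4 of 5 tested regions rose there, Zrsr1, Peg13, Airn and Impact. In the background 8.94% of 29656 regions rose. limma on site means called 5 of the 5, adding Grb10, and a fit on the 2 stages called 3, without Airn.

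**Figure D1:**
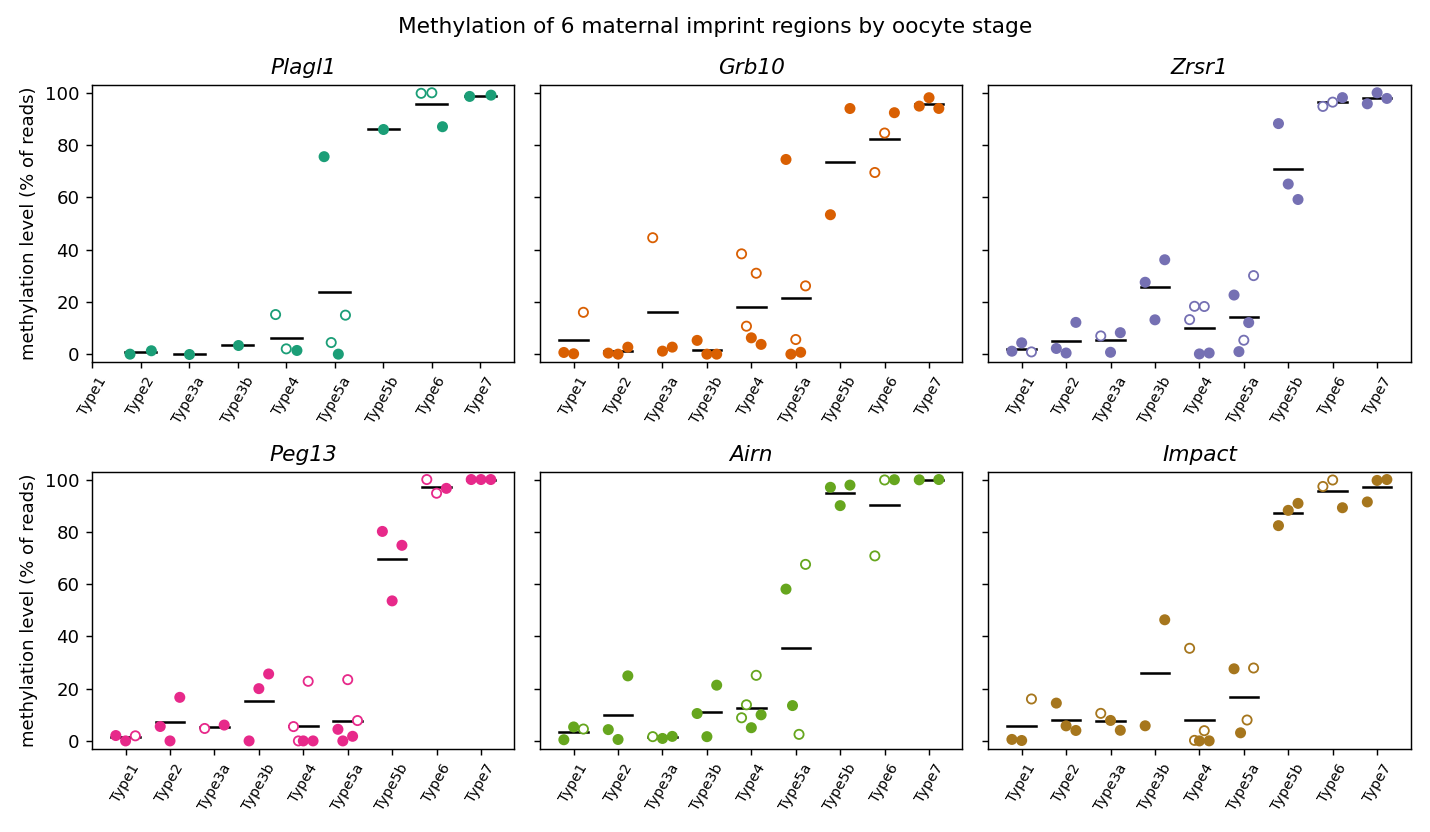
Methylation level (percent of methylated reads, y axis) of the 6 regions in each library (points), by stage (x axis), with stage means as bars. Open points are libraries with an X measure above 0. Every region is low up to Type4 in most libraries and above 50% in all libraries from Type5b on.

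Before that step no region was called. For Type3b against Type2 the count was 0 of 5 tested (0.00355% of 28177 regions rose), with 1 of the 5, Zrsr1, at an unadjusted p under 0.05, as were 9.34% of all regions. For Type5a against Type3b it was 0 of 5 (0.0664% of 28629 rose), with 1 of the 5, Airn, at an unadjusted p under 0.05, as were 8.96% of all. limma on site means also called 0 in both. After the step, 1 of 5 regions rose from Type5b to Type6, Zrsr1 (3.2% of 28117 rose). None of 5 was called between Type6 and Type7 (1.18% of 28399 rose), with 0 at an unadjusted p under 0.05, where 15.9% of all regions were, and 0 by limma. From Type2 to Type7 all 5 tested regions rose, where 27.8% of 29416 regions did. Peg13 had at least 5 measured sites in only 1 Type7 library and was not tested there, and Plagl1 was measured in 1 Type5b library and was not tested in the contrasts with Type5b. Without Type7 replicate 1, 3 regions could be tested against Type2 and all 3 rose.

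Plagl1 encodes a zinc-finger transcription factor, and the non-coding RNA Hymai overlaps it. Both are expressed from the paternal copy. In Type2, 0 of 50 reads summed over 10 sites were methylated in replicate 1, and the level was 1.30% in replicate 2. The single libraries of Type3a and Type3b had 0% and 3.42%, and Type4 had 15.2, 2.03 and 1.42% in replicates 1, 5 and 6. Type5a libraries were spread widely, at 75.6, 4.44, 0 and 14.9% in replicates 1, 5, 6 and 7. With 5, 7 and 27 reads at the most-read site, the 0 of Type2 replicate 1 allows a level of up to 60%, that of Type3a replicate 2 42.9% and that of Type5a replicate 6 11.1%. Type5a replicate 1 stood far above the other libraries of its stage, on 45 reads summed over 9 sites. In Type5b the 1 measured library had 86.0%, in Type6 the levels were 99.8, 100 and 87.0%, and in Type7 98.6 and 99.1%. The region rose from Type2 to Type7 by 98.2 points (adjusted p = 0.00313, quasi-binomial model). These stages had 2 libraries each, which did not overlap.

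Grb10 encodes an adaptor that binds insulin and IGF receptors and restrains growth, and its region is a CpG island at which transcription starts on the paternal copy in neurons. In Type2 it had 0.399, 0 and 2.68%, and in Type1 0.650, 0.155 and 16.01%, the last in replicate 3 at an X measure of 1.09. One Type3a library, replicate 1, had 44.5% at an X measure of 1.86, while the others had 1.15 and 2.69%. The Type3b levels were 5.27, 0 and 0%, where the zeros allow up to 15 and 20%. Up to this stage Grb10 was thus low except in those 2 libraries. Type4 had 38.4, 10.7, 6.25, 30.96 and 3.74% in replicates 1, 2, 4, 5 and 6. The levels of replicates 1, 2 and 5, whose X measures were 6.75, 10.6 and 9.94, lay above those of replicates 4 and 6, at -3.37 and -0.662, and the part of DNA from other cells in this was not tested.

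In Type5a the Grb10 levels were 74.5, 0, 5.61, 0.721 and 26.1% in replicates 1, 4, 5, 6 and 7, and in Type5b 53.3 and 94.0% in replicates 2 and 3. Type5a replicate 1, at an X measure of -3.86, overlapped with Type5b. The stage means of 21.4% ± 31.5 (SD, n = 5) and 73.7% ± 28.7 (n = 2) differed by 52.3 points, which did not pass in the quasi-binomial model (adjusted p = 0.132). By limma on site means the difference was 56.9 points and passed (adjusted p = 0.00926). Without Type5a replicate 1 the difference was 65.6 points and passed (adjusted p = 0.0479, quasi-binomial model). Type6 had 69.5, 84.6 and 92.4% and Type7 94.9, 98.1 and 94.0%, so that the libraries of these stages did not overlap. The 13.5 points between them did not pass (adjusted p = 0.366, quasi-binomial model). The stages were read at partly different sites: those listed at 11925935 to 11926188 were read in Type6 but in no Type7 library. At 11925673, read in both, Type6 ran from 66.1 to 100% and Type7 was at 100%. In Type6 replicate 2, 12 of 27 sites were below 10% and 13 above 90%. From Type2 to Type7 the region rose by 94.6 points (adjusted p = 3.94e-06, quasi-binomial model).

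Zrsr1 encodes a splicing factor related to U2AF and is a retrogene inside Commd1. It had 1.14, 4.34 and 0.860% in Type1 and 2.18, 0.442 and 12.2% in Type2. Type3a had 6.98, 0.714 and 8.23%, and Type3b 27.5, 13.1 and 36.1%. All 3 Type3b libraries lay above all Type2 libraries, none of them with an X measure above 0. The difference of 20.7 points did not pass the adjustment (adjusted p = 0.278, quasi-binomial model, and 0.1 by a two-sided exact permutation test, the smallest possible with 3 against 3). In Type4 the levels were 13.2, 18.3, 0.0912, 18.2 and 0.443%, the 3 higher ones again in the libraries with an X measure above 0.

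Zrsr1 then had 22.6, 0.973, 5.33, 12.1 and 30.05% in Type5a and 88.2, 65.1 and 59.2% in Type5b. The libraries of those stages did not overlap, and the region rose by 56.6 points (adjusted p = 0.000168, quasi-binomial model). It was the only one of the tested regions also called on the next step. There it rose to 94.8, 96.4 and 98.1% in Type6, again without overlap (25.6 points, adjusted p = 0.0208, quasi-binomial model). That second call rested on few libraries. Without Type5b replicate 2 or 3, or Type6 replicate 1 or 3, the adjusted p was 0.0920, 0.0717, 0.0519 and 0.0538, and it was 0.170 by limma and 0.106 in a fit on the 2 stages. Type7 had 95.8, 100 and 97.8%, 92.9 points above Type2 (adjusted p = 2.43e-07, quasi-binomial model).

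Peg13 is a non-coding RNA expressed from the paternal copy and lies inside Trappc9. Which of its sites were read differed between libraries: 14 of the 30 measured libraries had at least 5 sites, and the others 2 to 4. The levels were 2.05, 0 and 1.95% in Type1, 5.51, 0 and 16.7% in Type2, 4.76 and 6.06% in Type3a, and 0, 20 and 25.6% in Type3b. With so few sites the higher of these levels rest on few reads, 50 in the case of Type3b replicate 2. Type4 had 5.48, 0, 0, 22.8 and 0% and Type5a 4.43, 0, 23.4, 1.76 and 7.79%. The higher levels of these stages, 22.8 and 23.4%, were both in replicate 5, at X measures of 9.94 and 0.978. On 6 reads at the most-read site in Type4 replicate 4, a count of 0 allows up to 50%. In Type5b the levels were 80.1, 53.6 and 74.8%, all above every earlier library, and Type6 had 100, 94.8 and 96.6% and Type7 100% in 3 of 3. Some of these levels rest on few sites. Type6 replicate 1 had 95 reads summed over 3 sites, and Type7 replicates 2 and 3 had 83 over 4 and 17 over 2. The rise from Type5a to Type5b was tested over the libraries with at least 5 sites, 2 in each stage. It was from 6.11% ± 2.38 (SD) to 77.5% ± 3.76 (adjusted p = 0.0113, quasi-binomial model). Over all libraries the means were 7.48 and 69.5%. From Type5b to Type6 the difference was 18.2 points over the libraries with at least 5 sites, 2 in each stage. It did not pass (adjusted p = 0.240, quasi-binomial model). Over all libraries, 3 in each stage, Peg13 rose there by 27.6 points without overlap, compared with 25.6 points in Zrsr1.

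Airn is the non-coding RNA that runs antisense to Igf2r and silences it on the paternal chromosome, and its region contains its start, inside Igf2r. Its levels were 0.450, 5.34 and 4.54% in Type1, 4.32, 0.546 and 24.9% in Type2, 1.63, 0.940 and 1.73% in Type3a, and 10.5, 1.63 and 21.3% in Type3b. In Type4 they were 8.85, 13.8, 5.05, 25.1 and 9.98%. The highest library of each stage up to Type4 thus stayed at or below 25.1%. Among Type5a libraries, replicates 1 and 7 had 58.1 and 67.5% and replicates 4 and 5 13.5 and 2.5%. The level of replicate 5 rests on only 40 reads summed over 7 sites. Replicates 1, 4 and 7 had 768, 1487 and 499 reads over 19, 17 and 19 sites. The X measure was -3.86 in replicate 1 and 3.23 in replicate 7. In Type5b Airn had 97.0, 90.02 and 97.9%, above all Type5a libraries. The rise of 59.6 points passed (adjusted p = 0.00188, quasi-binomial model), but not without Type5a replicate 4 (0.0550) or in a fit on the 2 stages (0.0648). In Type6 replicate 1 Airn had 70.8%, while replicates 2 and 3 had 99.8 and 99.9%, and Type7 had 99.9 and 100%. The gain from Type2 to Type7 was 90.03 points (adjusted p = 5.85e-05, quasi-binomial model).

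Impact encodes an inhibitor of the translational control kinase GCN2 and is expressed from the paternal copy. It had 0.568, 0.157 and 16.04% in Type1, 14.5, 5.76 and 4.00% in Type2, and 10.5, 7.83 and 4.06% in Type3a. Type3b had 5.78 and 46.3%. Type4 had 35.4, 0.208, 0, 3.91 and 0.0257%, with replicate 1 far from the others, and the 0 in replicate 4, on 25 reads at the most-read site, allows up to 12%. Type5a had 27.6, 3.10, 7.99 and 27.9% in replicates 1, 4, 5 and 7. In Type5b the levels were 82.4, 88.2 and 90.9%, without overlap with Type5a, and the rise was 70.5 points (adjusted p = 0.00157, quasi-binomial model). Type6 had 97.3, 99.8 and 89.2%, which overlapped with Type5b, and Type7 had 91.4, 99.7 and 100%. The 8.31 points between Type5b and Type6 did not pass (adjusted p = 0.442, quasi-binomial model), and the 89.0 points from Type2 to Type7 did (adjusted p = 4.70e-05).

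Within a library the regions could be far apart. Among Type5a libraries, replicate 1 ran from 4.43% in Peg13 to 75.6% in Plagl1, with a median of 42.8%, and replicate 7 from 7.79% in Peg13 to 67.5% in Airn. In these 2 libraries the 3-kb windows below 10% in Type2 and above 80% in Type7 were at 29.6 and 31.7%. In Type5b, replicate 1 ran from 80.1 to 97.0%, replicate 2 from 53.3 to 90.02% and replicate 3 from 59.2 to 97.9%, so that every measured region of the stage was past 50%.

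In Type5b, Airn was the most methylated of the regions in each of the 3 libraries. Airn lay above Zrsr1, Peg13 and Impact in 3 of 3 libraries and above Grb10 in 2 of 2. The difference was 24.1 points ± 15.0 (SD) over Zrsr1, 25.4 ± 10.01 over Peg13 and 7.82 ± 6.47 over Impact. Impact lay above Peg13 in 3 of 3 libraries. Zrsr1, Peg13 and Grb10 had no order among themselves that held in every library. As a share of its Type7 level, Airn had reached 95.02% in Type5b, Impact 89.8%, Plagl1 87.0% in its 1 library, Grb10 77.0%, Zrsr1 72.4% and Peg13 69.5%. The order was not tested. The means of Grb10, Zrsr1 and Peg13 differed by less than their SDs, and Plagl1 had 1 library. The place of Peg13 depended on which of its sites were read. They fell into 2 clusters, described below, with Type5b means of 99.8% (n = 2) and 42.1% (n = 3). The first cluster, at 100 and 99.6% in replicates 1 and 3, lay above Airn, at 97.0 and 97.9%. Replicate 2 read only the second. In Type6 Grb10, read partly at sites not read in Type7, had the lowest mean. It lay below Zrsr1, Peg13 and Airn in 3 of 3 libraries and below Plagl1 and Impact in 2 of 3, since in replicate 3 both were lower than Grb10. In Type7 it lay below Zrsr1 and Peg13 in 3 of 3.

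The 6 regions were set beside the 2186 windows that were below 10% in Type2 and above 80% in Type7, so that only the stages between them carry information. These windows had 22.4% ± 8.73 (SD, n = 5) in Type5a, 68.3% ± 6.09 (n = 3) in Type5b and 85.8% ± 1.31 (n = 3) in Type6. In Type5b Airn lay at the 90.2nd percentile of these windows, Impact at the 72.1st, Plagl1 at the 68.6th, Grb10 at the 45.6th, Zrsr1 at the 42.0th and Peg13 at the 40.1st. The Peg13 value depended on which of its sites were read. In Type5a Peg13 was at the 15.9th percentile and Airn at the 77.9th, and in Type6 Grb10 was at the 27.3rd. Grb10 and Zrsr1 held 26.3 and 25.1 listed sites per kb, above 98.8 and 98.5% of those windows, while the other 4 regions held 4.62 to 7.60 against a median of 4.67. The 394 gained windows with at least 10 sites per kb had 60.1% ± 7.47 in Type5b and 78.5% ± 1.57 in Type6. The Type6 level of Zrsr1, 96.4% ± 1.68, lay above that, while that of Grb10, 82.2% ± 11.6, differed from it by less than its own SD. Neither difference was tested.

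**Figure D2:**
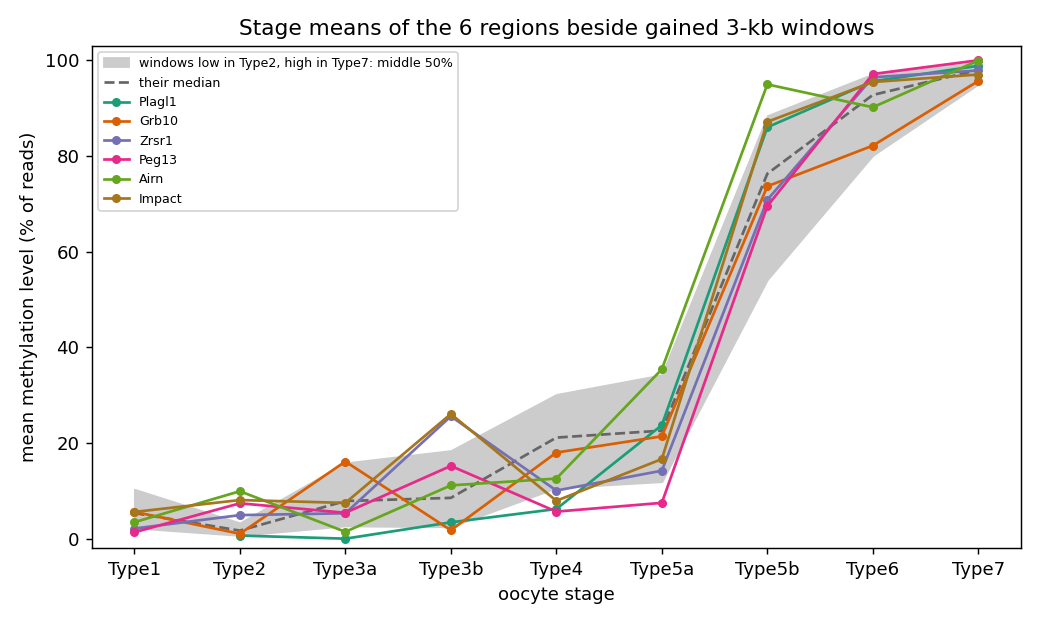
Mean methylation level (percent of reads, y axis) of the 6 regions by stage (x axis, coloured lines), with the median (dashed) and middle 50% (grey) of the 2186 windows chosen as low in Type2 and high in Type7. Airn lies above the grey band in Type5b (94.96%) and Peg13 below it in Type5a (7.48%).

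Within the Peg13 region, the listed sites fell into 2 clusters that were at different levels in Type5b. The first, of 22 sites at chr15:72640222-72640526, had 4.31 and 0% in Type5a replicates 1 and 7, where the 0, on 7 reads at the most-read site, allows up to 42.9%, and 100 and 99.6% in Type5b replicates 1 and 3. The second, of 8 sites at chr15:72640970-72641151, had 40, 53.6 and 32.7% in the 3 Type5b libraries and 100, 90.3 and 100% in Type6. Thus the first cluster read at least 99.6% in the 2 Type5b libraries that measured both, where the second read lower. In replicate 1 the first cluster had only 91 reads summed over 17 sites and the second 45 over 3 sites. In replicate 3 they had 275 over 17 and 162 over 3. Limits at the most-read site were not taken for the high levels. The second cluster was measured in Type5b at 3 or 4 sites a library, which ranged from 6.25 to 100% in replicate 1. In Type5b replicate 2 only the second cluster was read, and with sites read in at least 20 libraries, all in the second cluster, the Type5b mean of the region was 40.6% in place of 69.5%. The 5 kb on the lower-coordinate side of the region held 18 listed sites. There the level was 0% in all 3 Type2 libraries, on 43 to 204 reads summed over sites. In Type3a replicates 1 and 2 it was 91.1 and 0%, with an X measure of 1.86 in replicate 1. In Type3b it was 24.1, 68.0 and 0%, the 0 on only 15 reads summed over 3 sites. Limits at the most-read site were not taken for these zeros. High levels thus appeared in single libraries of primary follicles. It was 69.2, 0, 35.2 and 60.98% in Type4 replicates 1, 4, 5 and 6, and 37.8, 23.9, 27.7 and 11.03% in Type5a replicates 1, 4, 5 and 7. Each of those Type5a values lay above the level of the region in the same library, but in replicates 5 and 7 only by little. There the level was 27.7% against 23.4% in the region, and 11.03% against 7.79%. Their 95% Wilson intervals overlapped even on reads summed over sites. In Type5b it was 100, 96.1 and 95.2%. The 5 kb on either side of the other 5 regions held at most 1 listed site a side, so their borders could not be followed.

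In Grb10 the methylation did not extend to the upstream promoter printed above, whose listed sites lie at chr11:11937375-11937668, 9875 bases beyond the region. It had 0.742% ± 0.684 (n = 3) in Type2 and 0 of 299 and 0 of 224 reads in Type5b replicates 2 and 3, which allows up to 5.88 and 6.98%, where the region had 53.3 and 94.0% in the same libraries. In Type6 it had 4.48, 0.208 and 10.3%, and in Type7 0, 0.222 and 0%, beside 94.9, 98.1 and 94.0% in the region. Most libraries measured 6 of its 37 sites. The Zrsr1 promoter, inside its region, had 100, 60.9 and 99.1% in Type5b and 88.4, 100 and 100% in Type7, mostly over 3 of its 8 sites, and the 15 Plagl1 sites are themselves the promoter sites.

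**Figure D3:**
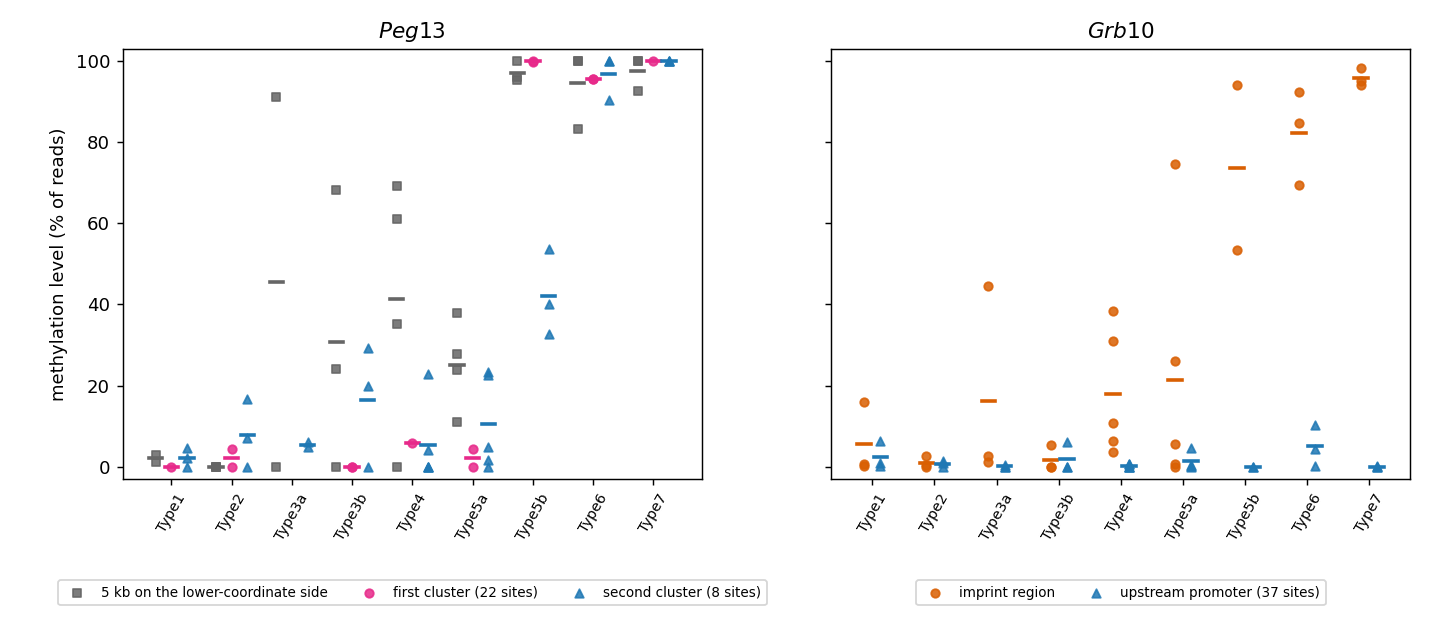
Methylation level (percent of reads, y axis) by stage (x axis) in parts of 2 loci, with a point for each library and a bar for the stage mean. Left, the 2 site clusters of Peg13 and the 5 kb beside the region; right, the Grb10 region and its upstream promoter. In Type5b the first Peg13 cluster is at 99.6 and 100% and the second at 32.7 to 53.6%, and the Grb10 promoter stays at or below 10.3% in all libraries.

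Single sites passed through intermediate levels in the stages around the gain. Over the 6 regions, the share of measured sites above 90% was 0 of 395 in Type1 and 0 of 443 in Type2, then 4.17% in Type5a, 59.9% in the Type5b libraries, 77.7% in Type6 and 95.1% in Type7. The share between 10 and 90% was 10.6% in Type1, 34.7% in Type3b, 36.5% in Type5a and 30.4% in the Type5b libraries, and then 15.5% in Type6 and 4.01% in Type7. Sites of one library and region share their molecules, so these shares are descriptions. In Type5b the share between 10 and 90% varied between regions. Zrsr1 had 52.2% ± 22.7 (n = 3) of its sites in between and Airn 20.3% ± 21.1 (n = 3), while Grb10 had none in its 2 libraries. In replicate 2 its 15 measured sites read 100% at 8 and 0% at 7. In replicate 3, 14 of 15 were above 90% and 1 below 10%. Reads may be copies of few molecules, and neither the part of such copies nor the difference between regions was tested.

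Neighbouring sites shared one level in some libraries and not in others, and how often was not counted. In Grb10 of Type5b replicate 2 the SD between sites was 51.6 points. In Type6 replicate 1, whose X measure was 1.04, the 9 sites of the second Airn cluster read between 82.6 and 84.5%, while the 9 measured sites of the first, on the lower-coordinate side, read from 0 to 17.6%. Both clusters were at 99.8% or more in Type6 replicates 2 and 3. In the same library the Grb10 region had 16 of 41 sites between 10 and 90% and 25 above 90%. In Type6 replicate 3 the 10 Plagl1 sites read between 85.7 and 87.5%, on 77 reads summed over them. In Type3a replicate 1, which had the high Grb10 level, 14 of 15 Grb10 sites lay between 10 and 90%, with a median of 47.4%.

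**Figure D4:**
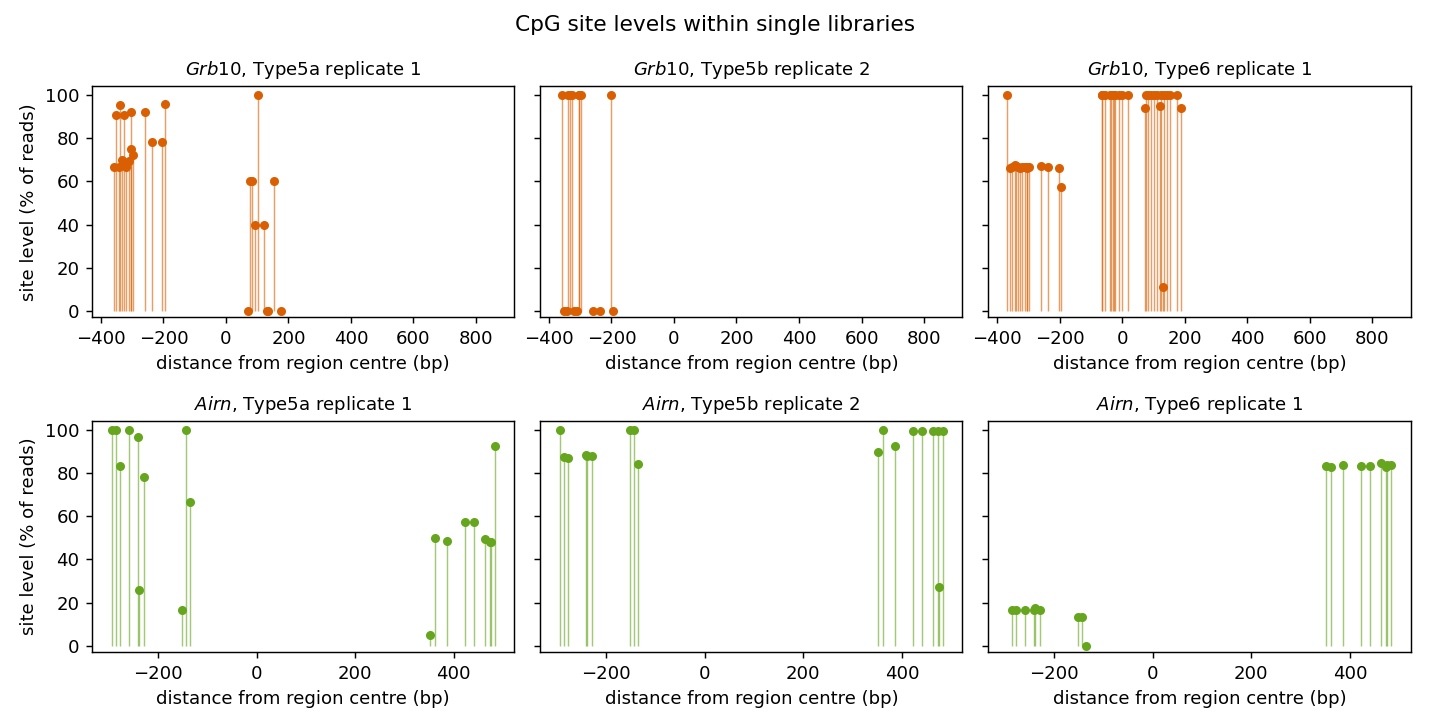
Level of each measured CpG site (percent of reads, y axis) by its distance from the region's centre (bp, x axis) in single libraries, for Grb10 (top) and Airn (bottom). In Grb10 of Type5b replicate 2 the sites read either 0 or 100%, and in Airn of Type6 replicate 1 they read at most 17.6% in one cluster and at least 82.6% in the other.

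The sites with the lowest mean in Type7 and the highest in Type5a were taken where a site had been read in at least 2 libraries of every stage, which no Plagl1 site had. For Impact the lowest Type7 site, at chromosome 18, 13131881, read 1.45 and 100% in the 2 Type7 libraries that measured it, 1.69 and 100% in Type5b and 100% in 3 of 3 Type6 libraries. The corresponding Grb10 site, at chromosome 11, 11925740, ran from 47.9 to 100% in Type7, and that of Zrsr1, at 22872876, from 50.0 to 100%. In Peg13 and Airn the corresponding sites were at 100% in every Type7 library that measured them. The Airn site at chromosome 17, 12935233, had the highest Type5a mean of these sites, 60.4% ± 32.8 (n = 3), and was at 99.7% ± 0.498 in Type5b.

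The 2 strands of the same CpG site differed most in the middle stages. A site near 0 or 100% can differ little between its strands, so this measure depends on the level. The share of sites between 10 and 90% was 25.3 to 36.5% from Type3b to Type5b and 4.01 to 19.7% in the other stages. Whether the strands differed beyond this was not tested. Over sites with at least 5 reads on each strand, the mean difference was 5.27 points in Type1, 5.71 in Type2 and 4.62 in Type3a, then 33.7 in Type3b, 17.97 in Type4, 18.2 in Type5a and 22.8 in Type5b, and 8.19 in Type6 and 4.61 in Type7. The value of Type3b was mostly that of Zrsr1, which gave 86 of its 147 sites. Counting each region and library alike, by the difference of its 2 strand levels, the medians were 9.5 points in Type3b, 21.7 in Type4, 11.4 in Type5a and 15.8 in Type5b, against at most 3.43 in each other stage. Zrsr1, which was read on both strands in all 31 libraries, had 43.5 points in Type3b. In its Type3b replicate 2 the plus strand had 65.5% and the minus strand 0% over 19 sites, and in replicate 3 they had 53.2 and 6.48% over 28 sites. In Airn, replicate 3 of Type3b had 0% on the plus strand and 100% on the minus strand over 4 sites, and Type4 replicates 1 and 6 had 0% against 66.7 and 57.4% over 7 sites each. These values are descriptions over reads that may be PCR copies of few molecules, and the part of such copies was not tested.

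**Figure D5:**
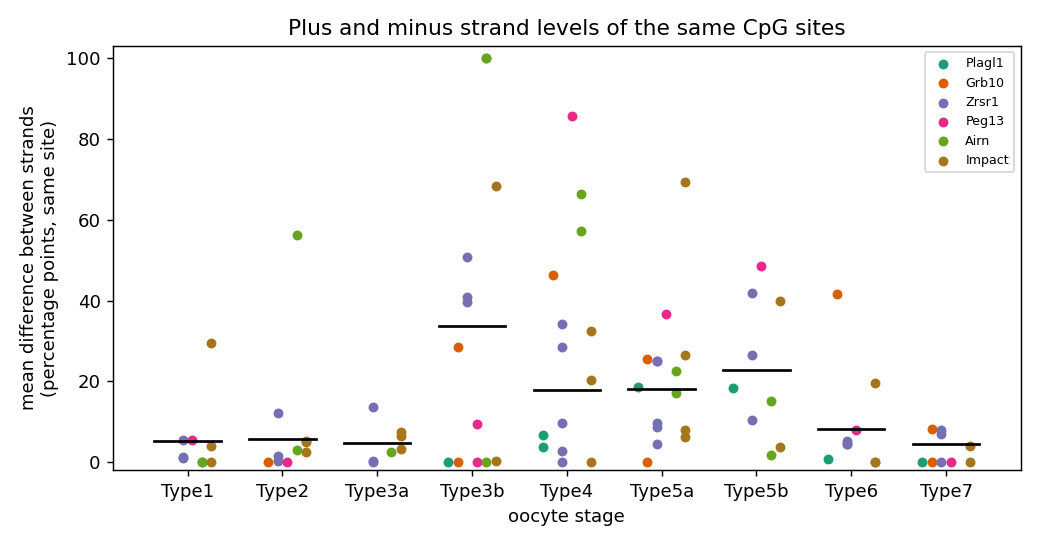
Mean absolute difference between the plus and minus strand levels of the same CpG sites (percentage points, y axis) by stage (x axis), with a point for each region and library and a bar for the mean over all sites. The bars are at 4.61 to 8.19 points in Type1, Type2, Type3a, Type6 and Type7 and at 17.97 to 33.7 from Type3b to Type5b. Sites near 0 or 100% can differ little between strands.

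The patterns most like each region over the 9 stages were found by the mean absolute difference of stage means among 20038 windows with at least 2 libraries in each stage. They were chr11:101037001-101040000 for Plagl1 (1.14 points over the 8 stages it was measured in), chr5:23988001-23991000 for Grb10 (2.23), chr17:56526001-56529000 for Zrsr1 (2.47), chr1:172230001-172233000 for Peg13 (3.25), chr7:19848001-19851000 for Airn (2.12) and chr15:27993001-27996000 for Impact (2.76). Among the regions themselves, the nearest was Peg13 for Zrsr1 and Zrsr1 for Peg13 (3.22 points), Zrsr1 for Impact (3.56), Impact for Plagl1 (6.18) and Plagl1 for Airn (6.49) and Grb10 (7.66).

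Other maternal imprint regions, on chromosomes 6 and 7, were used as a comparison at positions taken from general knowledge. In Type5b the paternally expressed Peg10 had 64.3% ± 16.2, Nap1l5 74.7% ± 13.2 and the region of the non-coding RNA Kcnq1ot1 70.9% ± 11.9 (n = 3 each), and Snrpn, a spliceosome component gene, had 83.6 and 90.05% in replicates 2 and 3. Mest, a hydrolase gene, had 59.3% in replicate 1 and 0 methylated of 30 reads in replicate 2. Airn lay above each of these 5 regions in every Type5b library that measured both. In Type7 the means of Mest, Peg10, Nap1l5, Snrpn and Kcnq1ot1 ran from 92.4 to 100%, beside 95.7 to 100% in the 6 regions. Peg3 was measured in 2 libraries only.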

How the data were processed

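Methylation was measured by reduced representation bisulfite sequencing in 31 libraries of mouse oocytes. Per the submitters' processing notes, reads were aligned with BSMAP 2.89 to mm9; the methylation caller is not given in the sources used here. For each CpG site the authors deposited the counts of all and of methylated reads, in total and per strand, and the fraction of methylated reads. Per the deposited values, the fewest reads of a listed site are 3. Levels were computed from the counts, and the deposited fraction was not used. No sample was left out.

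The 6 regions, the lists and the tests were chosen with earlier results of these data known. Sites with at least 5 reads were pooled per region and library. A library entered a test with at least 5 such sites, and a region was tested with at least 2 libraries in each stage compared. A quasi-binomial model with stage as a factor was fitted to all 31 libraries for the 6 regions and for all 3-kb windows, with the dispersion moderated as in limma and not below 1, and an F test. P-values were adjusted by Benjamini and Hochberg over all regions tested. Calls needed a difference of 20 points or more with the adjusted p below 0.05. Differences are between means of library levels, each library counting alike, while the model weights libraries by reads. The 6 comparisons were Type3b with Type2, Type5a with Type3b, Type5b with Type5a, Type6 with Type5b, Type7 with Type6 and Type7 with Type2. They share libraries, so their results are not independent.

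The single sites named were those with the lowest mean in Type7 and the highest in Type5a in each region. Site clusters are separated by gaps over 150 bp. Where 0 reads were methylated, the limit is 3 reads of those at the most-read site. Alternatives were other read minimums, at most 10 reads a site, sites read in at least 20 libraries, limma on site means, a fit on the stages compared, a replicate block, other window sizes, leaving out libraries with an X measure above 0 and leaving out each library. On simulated counts for Type5b with Type5a (29656 regions), 18, 58, 70 and 84% of changes of 20, 30, 40 and 50 points were called. Of the unchanged regions 0.2105% were called, but 9.83% had an unadjusted p under 0.05. For Type7 with Type2 that share was 7.62%. The p-values of the model were thus too small in these simulations. Promoters came from RefSeq on GRCm38.p6, and no coordinates were converted between builds. The tools were limma 3.58.1 in R 4.3.3, and scipy 1.17.1, pandas 2.3.3, numpy 2.4.6 and matplotlib 3.10.9 in Python 3.11.15.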

Additional observations from a re-analysis of the deposited data

Results flagged for a closer look

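In groups of 4 or 5 libraries, 2 single levels stood apart from the rest of their stage, of 11 groups looked at. Chance flags about 1 in 20 groups of normally distributed values. Many of these levels lie near 0 with a few higher ones, so that rate need not hold here. Peg13 had 22.8% in Type4 replicate 5, where the nearest of the other 4 libraries had 5.48%, on 114 reads over 4 sites. Impact had 35.4% in Type4 replicate 1, where the nearest had 3.91%. Both libraries had an X measure above 0, 9.94 and 6.75, and its part in these levels was not tested.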

How the results depend on the processing

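Differences were followed over the alternatives only for the region contrasts that at least 1 run called. None of these reversed. For contrasts that no run called, the direction was not followed. The replicate numbers did not pair the libraries, since the correlation of same-numbered libraries' deviations from their stage means ran from -0.0306 to 0.0492. With the replicate block, 1 region was called from Type5a to Type5b in place of 4: Zrsr1 remained, and the adjusted p of Peg13, Airn and Impact was 0.279, 0.0774 and 0.0583. From Type5b to Type6, 0 regions were called in place of 1 with at most 10 reads a site, in the fit on 2 stages and by limma, and from 0 to 1 with each library left out. From Type2 to Type7, 3 to 5 regions were called with each library left out, 3 without Type7 replicate 1, when only 3 could be tested. From Type5a to Type5b, leaving out each library gave 3 to 4 calls. With a minimum of 3 reads, Plagl1 could be tested there and rose, so that 5 of 6 were called. Without the libraries of X measure above 0, 3 of 4 tested regions rose from Type5a to Type5b (Zrsr1, Airn and Impact) and 5 of 5 from Type2 to Type7, and the comparisons with Type6 could not be fitted, since 1 Type6 library was left. In the contrasts followed, over the alternatives other than leaving out single libraries, 96 differences kept their side of the threshold. Of the rest, 7 lost their call and 1 gained one. Among the levels that moved by over 1 SD, Peg13 in Type5b had 40.6% with sites read in at least 20 libraries and 54.6% with a minimum of 10 reads. Beyond fewer libraries or regions tested, the cause was not tested. Depth limited Peg13 and Plagl1 most.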
